A study of Homo sapiens with 3 samples.

Results

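The cytosolic heat shock genes described here are 10 genes chosen by symbol: HSPA1A, HSPA1B, HSPA8, HSPB1, HSPH1, HSP90AA1, HSP90AB1, DNAJB1, DNAJA1 and BAG3. All 10 were found among the 36601 genes of the count tables, and all 10 reached at least 10 counts per 1000000 UMIs of a library (CPM). They were measured in OVCAR3 cells, an established line grown from a human HGSOC (high-grade serous ovarian cancer), by single cell RNA-sequencing that counts each captured mRNA molecule once through a unique molecular identifier (UMI). Cultures had received for 48 h either DMSO, the solvent, or 50 μM of the RAC1 inhibitor NSC23766 (RAC1i), or 50 μM RAC1i together with 5 μM of the EZH2 inhibitor GSK126 (Combo). RAC1 is a small GTPase that controls the actin cytoskeleton, and EZH2 is the histone methyltransferase of Polycomb repressive complex 2. Each condition was 1 library, so no test between conditions was possible and no p-value is given. Cells treated with EZH2i alone were not analysed here.

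Heat shock proteins are chaperones that keep other proteins folded. HSP70 proteins bind unfolded stretches of a client, J proteins (the DNAJ genes) bring clients to HSP70 and speed up its ATPase, HSPH1 and BAG3 exchange its nucleotide, HSP90 takes over clients such as kinases and steroid receptors, and small heat shock proteins such as HSPB1 hold unfolded proteins without using ATP. Some of the genes are kept on in all cells, while others are switched on when unfolded proteins release the transcription factor HSF1, which binds heat shock elements in their promoters. The genes were therefore read in 3 groups by their known regulation. The strictly inducible group held HSPA1A, HSPA1B, DNAJB1, HSPH1 and BAG3, the inducible group with a high basal level held HSPB1 and HSP90AA1, and the constitutive group held HSPA8, HSP90AB1 and DNAJA1. Strictly inducible is a label only, as these genes were not off in DMSO. They were at 33.0 CPM (BAG3) to 146.4 CPM (HSPH1) there, and 94.7% of DMSO cells had a UMI of at least 1 of them.

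Cells with more than 1000 genes, no more than 20% mitochondrial UMIs and a complexity above 0.8 were kept, which left 7531 DMSO, 10215 RAC1i and 8239 Combo cells, with 199063947 to 234969742 UMIs per library and a median of 20989 to 26750 UMIs per cell. These limits on cells were taken from the methods of the paper. The median mitochondrial share was 5.60% for DMSO against 1.66% for RAC1i and 1.58% for Combo. The epithelial genes EPCAM, KRT8 and KRT18 were at 274 to 924 CPM in every library, while PTPRC and CD3E, of blood cells, had at most 5 UMIs in a library. PAX8, a marker of the serous lineage, was at 355 CPM in DMSO and at 54.3 and 47.8 CPM in the treated libraries, and WT1, another, at 32.0, 10.4 and 7.87 CPM. PECAM1, COL1A1 and ACTA2, of endothelial cells and fibroblasts, were at 0.349 to 5.69 CPM. Between 15 and 23 kept barcodes were shared by any pair of libraries, which was at most 0.305% of either. Intervals below are exact 95% intervals of the UMI counts and cover counting error only, not the spread between cultures, which was not measured.

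The heat shock genes did not move together under RAC1i. HSPA8, HSPA1A and HSPA1B were lower than in DMSO, DNAJB1, BAG3 and HSPB1 were higher, and HSP90AA1 differed from DMSO by less than 5%. By a fold of at least 1.5, 2 of the 10 genes were higher in RAC1i (DNAJB1 and BAG3), where 22.7% of the 8778 genes with at least 10 CPM were higher by as much, and 3 of the 10 were lower (HSPA8, HSPA1A and HSPA1B), where 36.9% of the same genes were lower. In Combo 1 gene was higher than in DMSO (DNAJB1, against 21.3% of 8745 genes) and the same 3 were lower (against 35.4%). These shares were near the background, so the count of genes past 1.5-fold does not set the heat shock genes apart from other genes. By a fold of at least 2, none of the 10 was higher in RAC1i (background 13.1%) and HSPA8 and HSPA1A were lower (background 24.6%), while in Combo DNAJB1 was higher (background 11.8%) and the same 2 were lower (background 22.8%). Both comparisons use the 1 DMSO library, so they are not independent of each other.

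**Figure D1:**
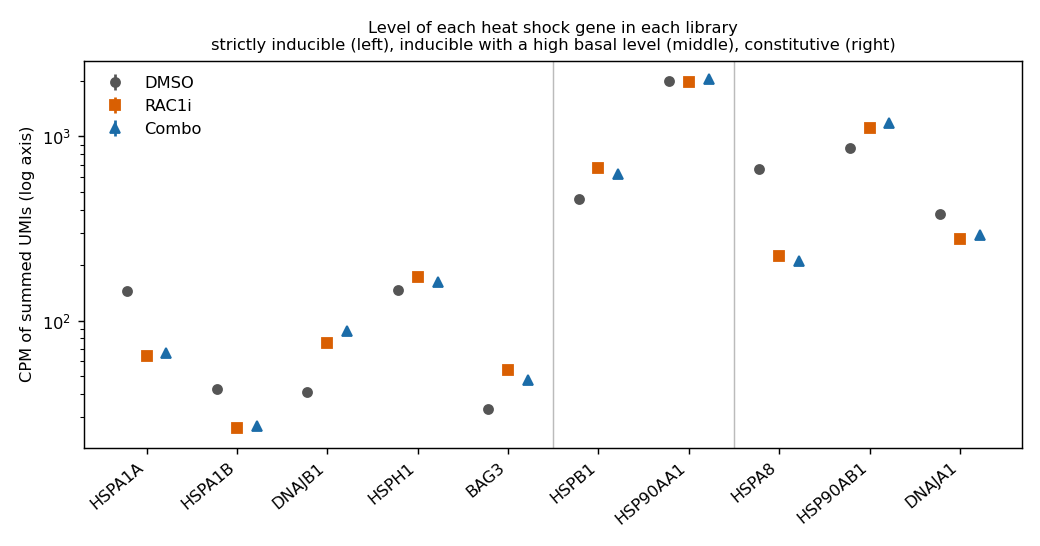
CPM of UMIs summed over the kept cells (log axis) for each of the 10 genes in DMSO (circles), RAC1i (squares) and Combo (triangles), with exact 95% Poisson intervals that are mostly smaller than the symbols. HSPA1A, HSPA1B, HSPA8 and DNAJA1 were highest in DMSO, and RAC1i and Combo lay close together for every gene.

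Of the genes with at least 10 CPM, more were lower than higher under treatment, and their median had a log2 ratio to DMSO of -0.20 in RAC1i and -0.18 in Combo. With no minimum CPM the order was the reverse, with 39.6% of 30407 genes at least 1.5-fold higher and 34.0% lower in RAC1i, and 38.0% and 34.2% in Combo. Relative to the median gene with at least 10 CPM, 3 heat shock genes were at least 1.5-fold higher in RAC1i (DNAJB1, BAG3 and HSPB1, background 28.7%) and 2 were lower (HSPA8 and HSPA1A, background 30.6%). In Combo 4 were higher relative to the median gene, with HSP90AB1 added (background 27.2%), and the same 2 were lower (background 29.3%). HSPA1B was past 1.5-fold on the CPM scale but not relative to the median gene. The median log2 ratio of the 10 genes was 0.11 in RAC1i and 0.10 in Combo.

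Among the strictly inducible genes, the HSP70 gene HSPA1A was at 145.5 CPM (143.8 to 147.1) in DMSO against 63.9 CPM (62.9 to 65.0) in RAC1i and 66.7 CPM (65.6 to 67.8) in Combo. This was 0.440 times (0.431 to 0.448) the DMSO level in RAC1i and 0.459 times (0.450 to 0.468) in Combo. Its neighbour HSPA1B, which encodes the same HSP70 protein, was at 42.8 CPM in DMSO against 26.2 CPM in RAC1i and 26.9 CPM in Combo. Relative to DMSO, HSPA1B stood at 0.612 (0.592 to 0.632) in RAC1i and 0.628 (0.608 to 0.650) in Combo, and it was nearer to 1 when every cell counted equally (log2 of -0.27 and -0.30 from the mean over cells of CPM). HSPA1B was within 1.5-fold of DMSO under 2 of 8 other settings in RAC1i and 4 of 8 in Combo, so the count of lower genes also depends on the processing. Summed over all kept cells, both treated libraries lay below DMSO for both HSP70 genes.

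DNAJB1, the inducible J protein that also binds HSF1, went the other way, with 41.2 CPM (40.3 to 42.1) in DMSO against 75.2 CPM (74.1 to 76.3) in RAC1i and 87.9 CPM (86.7 to 89.2) in Combo. The DNAJB1 level was 1.82 times (1.78 to 1.87) that of DMSO in RAC1i and 2.13 times (2.08 to 2.19) in Combo. BAG3, a cochaperone that links HSP70 to autophagy, was at 33.0 CPM in DMSO against 54.2 CPM in RAC1i and 47.6 CPM in Combo. Relative to DMSO, BAG3 stood at 1.64 (1.59 to 1.69) in RAC1i and 1.44 (1.40 to 1.49) in Combo. In Combo it was past 1.5-fold under 4 of 8 other settings, so the count of genes higher in Combo depends on the processing. HSPH1, the HSP110 nucleotide exchange factor, was at 146.4 CPM in DMSO against 172.2 CPM in RAC1i and 162.6 CPM in Combo, with ratios of 1.18 (1.16 to 1.20) and 1.11 (1.09 to 1.13). Within this group the DMSO library was thus highest for the HSP70 genes and lowest for DNAJB1, BAG3 and HSPH1.

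The sum of the 5 strictly inducible genes hid these differences. It was 408.8 CPM (406.0 to 411.7) in DMSO against 391.8 CPM (389.2 to 394.3) in RAC1i and 391.8 CPM (389.2 to 394.5) in Combo, a ratio to DMSO of 0.958 in both. The direction of this ratio depended on the scaling, with a log2 ratio of -0.06 on the CPM scale in RAC1i and Combo but of 0.05 and 0.06 with DESeq2 size factors. What differed was the make-up of the sum. HSPA1A gave 35.6% (35.2 to 35.9%) of its UMIs in DMSO against 16.3% (16.1 to 16.6%) in RAC1i and 17.0% (16.8 to 17.3%) in Combo. DNAJB1 gave 10.1% in DMSO against 19.2% in RAC1i and 22.4% in Combo. The BAG3 share was 8.08%, 13.8% and 12.2%, that of HSPH1 was 35.8%, 43.96% and 41.5%, and that of HSPA1B was 10.5%, 6.68% and 6.86%, in the same order.

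**Figure D2:**
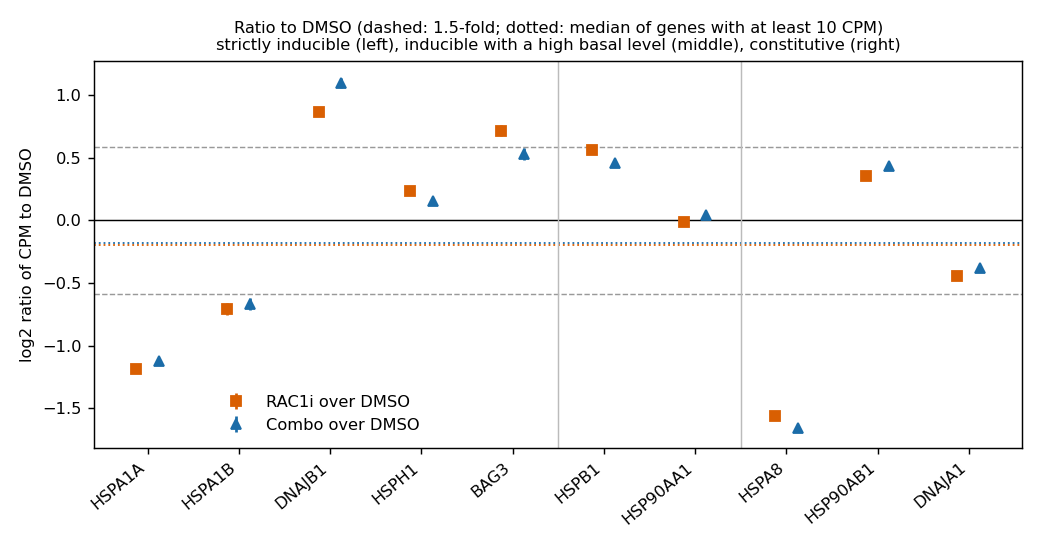
Log2 ratio of CPM to DMSO (y axis) for each of the 10 genes in RAC1i (squares) and Combo (triangles), with exact 95% intervals smaller than most symbols; dashed lines mark 1.5-fold and dotted lines the median of the genes with at least 10 CPM. HSPA8 lay lowest at -1.56 and -1.66, and DNAJB1 highest at 0.87 and 1.09.

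HSPB1, the small heat shock protein HSP27, was at 454.7 CPM (451.7 to 457.6) in DMSO against 669.0 CPM (665.7 to 672.4) in RAC1i and 623.7 CPM (620.4 to 627.1) in Combo. The ratio of HSPB1 to DMSO was 1.47 (1.46 to 1.48) in RAC1i and 1.37 (1.36 to 1.38) in Combo, just under the 1.5-fold limit on the CPM scale, and in RAC1i it was over the limit with TMM or DESeq2 scaling. HSP90AA1, the inducible HSP90, had the most UMIs of the 10 genes, with 1995 CPM in DMSO against 1975 CPM in RAC1i and 2050 CPM in Combo. Its ratios to DMSO of 0.990 and 1.03 changed sign under 2 and 4 of the 8 other settings, so no direction is given for it.

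In the constitutive group, HSPA8, the HSP70 that most cells carry at all times, differed most of the 10 genes. It was at 661.4 CPM (657.8 to 664.9) in DMSO against 224.7 CPM (222.7 to 226.6) in RAC1i and 209.8 CPM (207.8 to 211.7) in Combo. The level of HSPA8 was 0.340 times (0.336 to 0.343) that of DMSO in RAC1i and 0.317 times (0.314 to 0.321) in Combo, which put it at the 12.5th and 9.47th percentile of the genes with at least 10 CPM. DNAJA1, a J protein partner of HSPA8, was at 376.4 CPM in DMSO against 276.7 CPM in RAC1i and 289.9 CPM in Combo, with ratios of 0.735 (0.727 to 0.743) and 0.770 (0.762 to 0.778). HSP90AB1, the constitutive HSP90, was instead at 868.0 CPM in DMSO against 1107 CPM in RAC1i and 1172 CPM in Combo, with ratios of 1.28 (1.27 to 1.28) and 1.35 (1.34 to 1.36). Constitutive and inducible genes were thus found on both sides of DMSO, and the sum of all 10 genes was 0.476% of the UMIs in DMSO, 0.464% in RAC1i and 0.474% in Combo.

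Pairs of related genes shifted in their proportions. Of the UMIs of both HSP90 genes, HSP90AA1 held 69.7% (69.6 to 69.8%) in DMSO against 64.1% (64.0 to 64.2%) in RAC1i and 63.6% (63.5 to 63.7%) in Combo. DNAJB1 held 9.87% (9.67 to 10.1%) of the UMIs of DNAJB1 and DNAJA1 in DMSO, 21.4% (21.1 to 21.6%) in RAC1i and 23.3% (23.0 to 23.6%) in Combo. Of the UMIs of HSPA1A and HSPA8, the inducible HSPA1A held 18.0% in DMSO against 22.2% in RAC1i and 24.1% in Combo, since HSPA8 was lower by more than HSPA1A. In each of these pairs both treated libraries were closer to each other than to DMSO.

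The split between HSPA1A and HSPA1B, and also their sum, depends on how reads that fit both were counted, which was not examined. HSPA1A lies at chr6:31815543-31817946 and HSPA1B at chr6:31827738-31830254 of GRCh38, both on the plus strand. Of all stretches of 90 bases in the HSPA1A transcript, 73.0% also occur in the HSPA1B transcript, and 69.4% the other way round, so a read from there fits both. In the last 500 bases, where reads of a library primed at the 3′ end mostly fall, 14.6% of the stretches of HSPA1A and 0% of those of HSPA1B were shared. HSPA1A held 77.3% (76.8 to 77.7%) of the UMIs of the pair in DMSO, 71.0% (70.3 to 71.6%) in RAC1i and 71.3% (70.7 to 71.9%) in Combo.

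Adding EZH2i to RAC1i went with small differences for all 10 genes. None was past 1.5-fold between Combo and RAC1i in either direction, where 0.175% of 7443 genes were higher and 0.484% were lower. The same was true for a fold of 2 (background 0.0269% higher and 0.0134% lower) and for 1.5-fold relative to the median gene (background 0.161% and 0.524%). The ratio of Combo to RAC1i ran from 0.878 (0.856 to 0.902) for BAG3 to 1.17 (1.15 to 1.19) for DNAJB1. For HSPA1B it was 1.03 and its interval (0.991 to 1.07) held 1, while the intervals of the other 9 genes did not. Without replicate cultures it cannot be said whether differences of this size exceed those between 2 cultures treated alike.

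HSPA1A, HSPA1B, DNAJB1 and HSPA8 are shown with their upstream sequence because they are all known targets of HSF1, yet the first, second and last were lower and DNAJB1 was higher under RAC1i. The 150 bases before the start of the RefSeq transcript (GRCh38.p14) are given 5′ to 3′ on the strand of the gene, and capitals mark the matches to GAANNTTC or TTCNNGAA, which are inverted pairs of the heat shock element unit and read the same on both strands. The stretches are chr6:31815393-31815542 (plus strand) for HSPA1A, chr6:31827588-31827737 (plus strand) for HSPA1B, chr19:14518398-14518547 (minus strand), the second of 3 annotated starts, for DNAJB1, and chr11:123062137-123062286 (minus strand) for HSPA8.
HSPA1A: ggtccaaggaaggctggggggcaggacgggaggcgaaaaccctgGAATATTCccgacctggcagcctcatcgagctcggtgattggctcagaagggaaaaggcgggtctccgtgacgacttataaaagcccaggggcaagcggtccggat
HSPA1B: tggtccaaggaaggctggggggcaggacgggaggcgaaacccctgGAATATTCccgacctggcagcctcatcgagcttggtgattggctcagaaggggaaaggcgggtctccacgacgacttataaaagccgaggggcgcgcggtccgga
DNAJB1: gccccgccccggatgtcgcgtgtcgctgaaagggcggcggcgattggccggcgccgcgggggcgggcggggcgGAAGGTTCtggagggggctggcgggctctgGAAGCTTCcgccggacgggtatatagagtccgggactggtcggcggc
HSPA8: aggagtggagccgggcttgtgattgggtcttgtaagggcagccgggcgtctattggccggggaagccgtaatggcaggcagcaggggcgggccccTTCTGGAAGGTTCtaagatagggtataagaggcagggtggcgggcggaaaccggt
HSPA1A and HSPA1B each had 1 pair, 106 and 105 bases before the start, and 235 of the 250 bases upstream of each were identical (94.0%). DNAJB1 had 2 separate pairs, 77 and 47 bases before this start. Of its other annotated starts, the first had no pair in its window and the third had 1, at base +2. The start shown is thus the one with the most pairs. In the stretch of HSPA8 shown, the 2 pairs, 55 and 50 bases before the start, overlapped as 3 alternating units in a row, TTC, GAA and TTC, each parted by NN. The whole window of HSPA8 held 4 pairs and 2 such runs, with the other pairs at 230 and 225 bases before the start, upstream of the bases shown.

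Over windows of 300 bases (250 before to 50 after each start), 8 of the 10 genes had at least 1 pair, all but HSPH1 and BAG3, compared with 13.5% of 35116 windows of all genes. Some of the 10 genes have several starts, and 9 of their 15 windows held a pair. A run of 3 units, in which GAA, TTC and GAA (or TTC, GAA and TTC) are each parted by NN, was found for 4 of the 10 genes (HSP90AA1, HSPA8, HSP90AB1 and DNAJA1) and in 0.49% of all windows, and every such run also counts as pairs. TATAAA was found for HSPA1A and HSPA1B, and in 11.5% of all windows. The genes with a run were on both sides of DMSO, and so were those with only pairs. These matches are letters in a window and do not show binding, and no match in BAG3 or HSPH1 says only that these letters are not in that window.

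At a fixed depth, the share of cells with a UMI differed from DMSO in the direction of the level for every gene but HSP90AA1. To compare cells of like depth, 5000 UMIs were drawn at random from each cell, which left out 806 DMSO, 1015 RAC1i and 885 Combo cells that were shallower. HSPA8 was then seen in 93.4% (92.7 to 93.9%) of 6725 DMSO cells, 57.0% (56.0 to 58.1%) of 9200 RAC1i cells and 52.4% (51.2 to 53.5%) of 7354 Combo cells, and in 97.3%, 82.4% and 79.7% without thinning. HSPA1A was seen in 49.4% (48.2 to 50.6%) of thinned DMSO cells, 27.6% (26.7 to 28.5%) of RAC1i cells and 28.2% (27.2 to 29.3%) of Combo cells, and in 83.5%, 65.9% and 69.9% without thinning. For DNAJB1 the thinned shares were 17.3% (16.4 to 18.3%), 31.2% (30.2 to 32.1%) and 34.7% (33.6 to 35.8%), and the shares without thinning 55.0%, 68.6% and 72.5%. At 5000 UMIs per cell these shares count cells in which a transcript was caught, so a cell without a UMI may still express the gene, and as no cell type in a cell line lacks these genes, UMIs from free RNA could not be gauged.

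BAG3 had thinned shares of 14.4% in DMSO against 24.7% in RAC1i and 21.5% in Combo (49.5%, 61.4% and 60.1% without thinning). For HSPA1B they were 18.8%, 12.98% and 13.3% (57.1%, 40.5% and 44.1% without thinning). The thinned shares of DNAJA1 were 82.5%, 68.4% and 69.3% (97.1%, 89.4% and 88.8% without thinning). HSPB1 was seen in 86.5% (85.6 to 87.3%) of thinned DMSO cells, 93.5% (92.95 to 93.97%) of RAC1i cells and 91.6% (90.98 to 92.3%) of Combo cells. At 2500 UMIs per cell the HSPB1 shares were 67.4%, 78.8% and 76.1%, and without thinning they were 98.2%, 98.3% and 97.3%, near to all cells in every library. HSP90AB1 and HSP90AA1 were seen in 96.1 to 99.7% of thinned cells of every library. HSPH1 was seen in 47.2%, 52.6% and 49.9% of thinned cells, and without thinning its share in Combo (81.0%) was not above that in DMSO (81.4%). At least 1 UMI of any strictly inducible gene was found in 83.9% (83.0 to 84.7%), 83.4% (82.6 to 84.1%) and 83.3% (82.4 to 84.1%) of thinned cells, which overlapped in all 3 libraries.

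**Figure D3:**
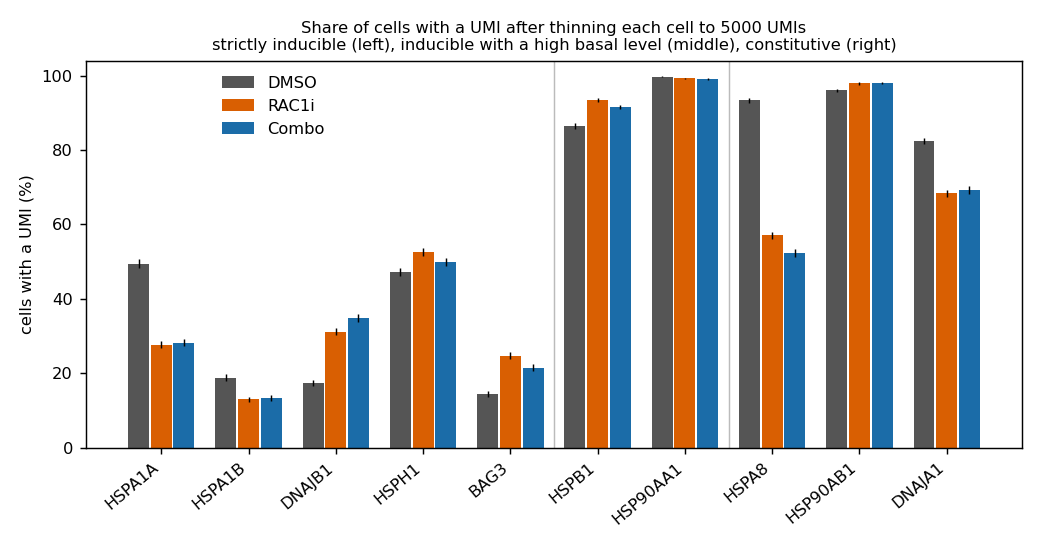
Share of cells with at least 1 UMI of each gene (%, y axis from 0) after each cell was thinned to 5000 UMIs, in DMSO (grey), RAC1i (orange) and Combo (blue), with Clopper-Pearson 95% intervals over 6725, 9200 and 7354 cells. HSPA8 was seen in 93.4% of DMSO cells and in 57.0% and 52.4% of the treated cells, a difference of more than 36 percentage points, while DNAJB1 and BAG3 had larger shares in the treated libraries.

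HSPA8 was spread less evenly over the treated cells than over DMSO cells. The 10% of thinned cells with the most HSPA8 UMIs held 23.5% of them in DMSO, 38.8% in RAC1i and 42.4% in Combo. Since low counts are uneven by sampling alone, the squared coefficient of variation beyond that of Poisson counts was used, and for HSPA8 it was 0.138 in DMSO against 0.812 in RAC1i and 1.06 in Combo. This excess was larger than in DMSO in both treated libraries for 8 of the 10 genes, all but HSPB1 and HSP90AB1, where it was larger for 65.4% of the 6535 genes with at least 10 CPM in every library. Most genes thus went the same way, and the count does not set the heat shock genes apart. DNAJA1, the partner of HSPA8, had values of 0.214, 0.422 and 0.451, although 1 DMSO cell held 44 of its UMIs. For HSP90AA1 the values were 0.144, 0.275 and 0.322. HSP90AB1 went the other way with 0.230, 0.190 and 0.163. The strictly inducible genes were all among the 8, with 0.152, 0.629 and 0.391 for HSPA1B, 0.178, 0.338 and 0.694 for DNAJB1, 0.119, 0.272 and 0.303 for BAG3, 0.389, 0.556 and 0.516 for HSPA1A and 0.243, 0.269 and 0.297 for HSPH1. Their sum, in contrast, had an excess of 0.140, 0.139 and 0.160, and the 10% of cells with the most UMIs of that sum held 26.2 to 26.8% of them in each library. The ubiquitous genes ACTB (0.139, 0.267 and 0.351) and EEF1A1 (0.0697, 0.0989 and 0.113) also had a larger excess in the treated cells, while GAPDH had a smaller one (0.137, 0.0799 and 0.0871).

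Across thinned cells within a library, the genes varied together weakly. These correlations are descriptions over 6725 to 9200 cells that share a library and a fixed depth, with no p, and use the log of 1 plus the UMIs. HSP90AA1 and HSP90AB1 had the highest Pearson r among the 45 pairs, at 0.37 in DMSO against 0.33 in RAC1i and 0.36 in Combo. For HSPA8 the nearest of 4183 genes, by the lowest r over the 3 libraries, were the chaperone genes HSP90AA1, HSPD1, DNAJA1 and HSP90AB1, with r from 0.11 to 0.23, followed by ANXA2, which encodes no chaperone, with r from 0.11 to 0.14. HSPA1A and HSPA1B had r of 0.07 in DMSO against 0.12 in RAC1i and 0.09 in Combo. HSPB1 varied with S100A6, TMSB10 and S100A11 (r of 0.20 to 0.34) rather than with a chaperone gene. These nearest genes of single members were listed after the values had been seen. For the sum of the strictly inducible genes the 5 nearest genes were SMC4, GOLGB1, KCNQ1OT1, ELF3 and TRA2B, with r no higher than 0.10, too weak to be a finding at these counts.

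In treated cells the levels of several heat shock genes went with the share of metallothionein UMIs. Metallothioneins, small proteins that bind zinc and other metals, had a median of 28.6 CPM in the lowest and 438 CPM in the highest quartile of DMSO cells, but of 828 and 26970 CPM in RAC1i and of 1524 and 41040 CPM in Combo. Quartiles were cut within each library, so those of the same rank differed in this share. The lowest DMSO quartile had a median of 22415 UMIs per cell, so at 28.6 CPM its cells held few metallothionein UMIs. Counting error thus blurs the order of DMSO cells by this share, and ratios across quartiles in DMSO and in treated cells are not a like comparison. In RAC1i, HSPA1A was at 44.3 CPM in the quartile with the lowest metallothionein share and at 100.4 CPM in the highest, a ratio of 2.27 (2.16 to 2.38), and in Combo it was at 51.5 and 100.0 CPM, a ratio of 1.94 (1.85 to 2.04). In DMSO the order was the opposite, with 161.9 and 132.7 CPM, a ratio of 0.820 (0.791 to 0.849). HSPA1A was below DMSO in every quartile, by a ratio of 0.274 to 0.757 in RAC1i and of 0.318 to 0.754 in Combo. HSPA1B showed the same order, with 19.5 and 39.5 CPM in RAC1i, 22.3 and 37.8 CPM in Combo, and 46.5 and 39.0 CPM in DMSO. In the highest quartile HSPA1B was 1.01 times the DMSO level in RAC1i and 0.968 times in Combo, and in the other 3 it was below DMSO in both.

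DNAJB1 was also higher in treated cells with more metallothionein, from 59.8 to 97.8 CPM in RAC1i and from 69.2 to 124.2 CPM in Combo, against 43.4 and 38.6 CPM in DMSO. The ratio of the highest to the lowest quartile for BAG3 was 1.63 in RAC1i, 1.36 in Combo and 0.986 in DMSO. HSPH1 and HSPA8 had the opposite order in the treated cells. The ratio was 0.630 in RAC1i and 0.551 in Combo for HSPH1, against 0.865 in DMSO, and 0.693 and 0.665 for HSPA8, against 0.971 in DMSO. HSPB1 was higher in the highest quartile in every library, at 867.5 against 597.5 CPM in RAC1i, 830.8 against 560.2 CPM in Combo and 512.6 against 438.9 CPM in DMSO, ratios of 1.45, 1.48 and 1.17. The other 3 genes had ratios from 0.893 to 1.10 in the treated libraries. Of the 10 genes, 6 had an interval of this ratio wholly above 1 in both treated libraries (HSPA1A, HSPA1B, DNAJB1, BAG3, HSPB1 and HSP90AA1), where 17.8% of 6532 genes with at least 10 CPM in every library did, and 4 had one wholly below 1 (HSPH1, HSPA8, HSP90AB1 and DNAJA1), where 66% did. The background genes were not matched to the 10 genes for level, on which the width of an interval depends.

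**Figure D4:**
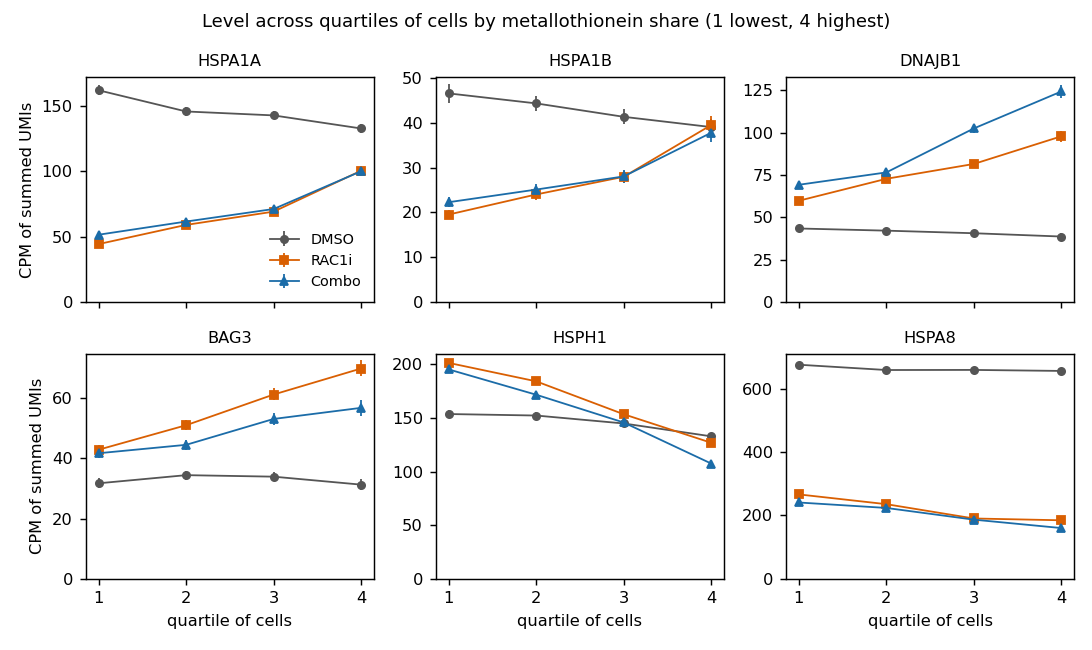
CPM of summed UMIs (y axis from 0) of 6 heat shock genes in 4 quartiles of the kept cells of each library, ordered by the share of metallothionein UMIs (x axis, 1 lowest, 4 highest), with exact 95% Poisson intervals; quartiles were cut within each library. In RAC1i and Combo HSPA1A, HSPA1B, DNAJB1 and BAG3 were higher and HSPH1 and HSPA8 lower in quartile 4 than in quartile 1, while in DMSO all 6 were lower in quartile 4, by a ratio of 0.820 to 0.986; HSPB1, HSP90AA1, HSP90AB1 and DNAJA1 are not drawn.

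Cells rich in metallothioneins also had fewer UMIs in the treated libraries, with a median of 11436 in the highest quartile against 26158 in the lowest in RAC1i and of 12382 against 31850 in Combo. Depth itself went with HSPA1A in treated cells, which was at 125.4 CPM in the quartile of RAC1i cells with the fewest UMIs and at 53.2 CPM in the quartile with the most, against 160.5 and 136.0 CPM in DMSO. Inside each quartile of depth, a comparison added after the values were seen, cells above the median metallothionein share still had more HSPA1A than those below it in the treated libraries, by 1.35 to 2.00 times in RAC1i and 1.24 to 1.54 times in Combo, and less in DMSO (0.905 to 0.936 times). For DNAJB1 these ratios were 1.23 to 1.47 in RAC1i, 1.17 to 1.60 in Combo and 0.878 to 1.02 in DMSO. HSPA8 had ratios of 0.678 to 0.815 in RAC1i, 0.676 to 0.817 in Combo and 0.987 to 1.00 in DMSO. Here too DMSO cells were ordered on fewer metallothionein UMIs than treated cells. HSP90AA1 lay on both sides of 1, at 0.928 to 1.11 in RAC1i and 0.902 to 1.075 in Combo. DNAJA1 did so in RAC1i, at 0.853 to 1.02.

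The mitochondrial share, which is read as a sign of cell quality, moved with the metallothioneins too. Its median was 2.27% in the highest metallothionein quartile of RAC1i against 1.499% in the lowest, and 2.28% against 1.47% in Combo, while in DMSO it was 4.14% against 5.91%. Between the highest and the lowest quartile of mitochondrial share, HSPA1A had a ratio of 1.55 (1.48 to 1.62) in RAC1i, 1.46 (1.38 to 1.53) in Combo and 0.977 (0.938 to 1.02) in DMSO. The same ratio for HSPA1B was 1.85 in RAC1i, 1.69 in Combo and 1.06 (0.979 to 1.14) in DMSO. Inside each quartile of mitochondrial share, likewise added after the values were seen, treated cells above the median metallothionein share had more HSPA1A than those below it, by 1.45 to 2.01 times in RAC1i and 1.30 to 1.76 times in Combo, and DMSO cells had less (0.897 to 0.927 times). For HSPA1B these ratios were 1.31 to 1.89, 1.24 to 1.48 and 0.878 to 0.937 in RAC1i, Combo and DMSO. HSP90AA1 again lay on both sides of 1, at 0.870 to 1.07 in RAC1i and 0.829 to 1.15 in Combo. DNAJA1 did so in RAC1i, at 0.7925 to 1.002. DMSO cells were again ordered on fewer metallothionein UMIs than treated cells. Depth and mitochondrial share were not held fixed together. Their relation was opposite in DMSO and the treated libraries. The lowest and highest quartiles of mitochondrial share had medians of 6978 and 24436 UMIs per cell in DMSO. In RAC1i these medians were 27124.5 and 8638, and in Combo 31461 and 7137. The ratios between these quartiles thus compare cells of unlike depth.

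Quartiles were cut within each library, so a treated quartile and the DMSO quartile of the same rank do not hold like cells. With this limit, the following held in all quartiles of depth, mitochondrial share, metallothionein share and share of G2M genes: HSPA8, HSPA1A and DNAJA1 were lower than in the DMSO quartile of the same rank, and DNAJB1 and BAG3 were higher, in both treated libraries. Over the quartiles of depth HSPA8 in RAC1i was 0.271 to 0.350 times the DMSO level, and in Combo 0.219 to 0.328 times. HSPB1 was higher than in DMSO in all quartiles but 1, the one with the lowest mitochondrial share, in which it was at 669.0 CPM in DMSO against 646.3 CPM in RAC1i and 576.5 CPM in Combo (0.966 and 0.862 times). That quartile compares cells of unlike depth, with a median of 6978 UMIs in DMSO against 27124.5 in RAC1i and 31461 in Combo. Over the quartiles of depth HSPB1 was 1.29 to 1.55 times the DMSO level in RAC1i and 1.24 to 1.57 times in Combo. HSPH1 in Combo was below DMSO in 1 quartile of depth (0.957 times), 1 of mitochondrial share (0.905 times) and 1 of metallothionein share (0.809 times), and in RAC1i in 1 of metallothionein share (0.955 times). HSPA1B depended on depth, at 1.28 times the DMSO level in the shallowest quartile of RAC1i cells and 0.512 times in the deepest, and at 1.17 and 0.558 times in those of Combo, so that both treated libraries lay above DMSO among the shallowest cells. HSP90AB1 was below DMSO in 1 quartile of depth and above it in 3, with ratios from 0.689 to 1.39 in RAC1i and from 0.618 to 1.57 in Combo. Cells with more G2M transcripts had more HSPH1 and HSP90AA1 in every library. In the highest quartile of G2M share HSPH1 was at 1.51 times its level in the lowest in DMSO, 1.29 times in RAC1i and 1.34 times in Combo, and HSP90AA1 at 1.26, 1.34 and 1.40 times.

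In the barcodes left out for over 20% mitochondrial UMIs, 5 of the 10 genes (HSPA1A, HSPA1B, DNAJB1, BAG3 and HSPB1) had an interval of the ratio to DMSO wholly above 1 in both treated libraries, where 18.7% of 6522 genes with at least 10 CPM in every library did. Another 3 (HSPA8, HSP90AA1 and DNAJA1) had one wholly below 1 in both, where 27.7% did. Whether an interval holds 1 depends on the number of UMIs, and the background genes were not matched to the 10 genes for level. The counts and the background shares are therefore not a like comparison. HSPA1A and HSPA1B thus stood on the other side of DMSO in these barcodes than in the sum over all kept cells. In the shallowest quartile of kept cells, however, HSPA1B was also above DMSO (1.28 times in RAC1i and 1.17 times in Combo). HSPA1A was at 0.781 and 0.743 times there. UMIs per left-out barcode differed between the libraries and were not matched.

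Of 55 other chaperone genes and regulators, 50 had at least 10 CPM in DMSO or RAC1i, and 6 of these were at least 1.5-fold higher in RAC1i (background 22.7%) and 12 lower (background 36.9%). In Combo 4 of 50 were higher (background 21.3%) and 12 lower (background 35.4%), and between Combo and RAC1i none of 48 was past 1.5-fold (background 0.175% higher and 0.484% lower). Of the 5 other J proteins of the cytosol with at least 10 CPM, 3 were past the limit and higher, but DNAJB4 reached 10 CPM in the treated libraries only, so the limit on CPM helped to set this count. The remaining ones, DNAJA2 (0.721 times DMSO in RAC1i and 0.783 times in Combo) and DNAJC7 (1.08 and 1.18 times), were within 1.5-fold. DNAJB2, which takes clients to the proteasome, was at 16.6, 48.2 and 48.0 CPM in DMSO against RAC1i and Combo, a ratio of 2.90 (2.79 to 3.01) in RAC1i. DNAJB4, a relative of DNAJB1, was at 6.80, 18.1 and 18.3 CPM, a ratio of 2.67, and DNAJB6, which keeps proteins from aggregating, was at 125.8, 251.5 and 257.4 CPM, a ratio of 2.00. The ER J protein DNAJB9 was higher by more, at 17.5, 64.7 and 52.2 CPM, a ratio of 3.71 in RAC1i.

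Of the other HSP70 and HSP110 genes with at least 10 CPM, 2 of 4 were past the limit, both lower in both treated libraries. Of the genes listed as small heat shock proteins, 2 of 2 were past it, also lower (background 36.9% in RAC1i and 35.4% in Combo). Below 10 CPM, the small heat shock gene HSPB8 had more UMIs in the treated libraries (3 in DMSO against 1517 in RAC1i and 1323 in Combo), and so had the HSP70 gene HSPA6 (5 against 52 and 110). CRYAB, the small heat shock protein alpha-B crystallin, was at 247.1 CPM in DMSO against 76.7 CPM in RAC1i and 64.6 CPM in Combo, opposite to HSPB1. HSPB11, put in this list by its symbol only, was at 67.1, 23.9 and 25.3 CPM. HSPA2 and HSPA4L, of the HSP70 and HSP110 list, were at 0.327 and 0.451 times the DMSO level in RAC1i. Both reached 10 CPM in DMSO only, so the limit on CPM helped to set their count. Of the genes that act with HSP70, STUB1, the ubiquitin ligase CHIP, was at 259.5, 69.8 and 84.8 CPM, and BAG2, which inhibits that ligase, was at 67.4, 19.7 and 20.4 CPM. BAG4 and BAG5, relatives of BAG3, were at 1.68 and 1.51 times the DMSO level in RAC1i and at 1.45 and 1.498 times in Combo, while BAG1 was at 0.693 and 0.605 times.

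Among HSP90 cochaperones, CACYBP was lower in both treated libraries, at 0.495 times DMSO in RAC1i and 0.528 in Combo, and SUGT1 and UNC45A were past the limit in RAC1i, at 0.649 and 0.626 times. None of the 8 subunits of the CCT chaperonin, which folds actin and tubulin, was past 1.5-fold, with ratios from 0.743 to 1.19 in RAC1i, where 22.7% of the genes with at least 10 CPM were higher and 36.9% lower by as much. In mitochondria the chaperonin partner HSPE1 was at 0.604 times and the HSP90 relative TRAP1 at 0.386 times the DMSO level in RAC1i, while HSPD1 was at 1.05 times. The ER chaperone HSPA5 (BiP) was at 0.577 times DMSO in RAC1i and 0.623 in Combo, and its exchange factor HYOU1 at 0.687 and 0.657 times. HSF1 mRNA was at 55.2, 60.1 and 61.1 CPM, a ratio of 1.09 (1.06 to 1.12) and 1.11 (1.08 to 1.13). Its mRNA does not measure the activity of HSF1.

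**Figure D5:**
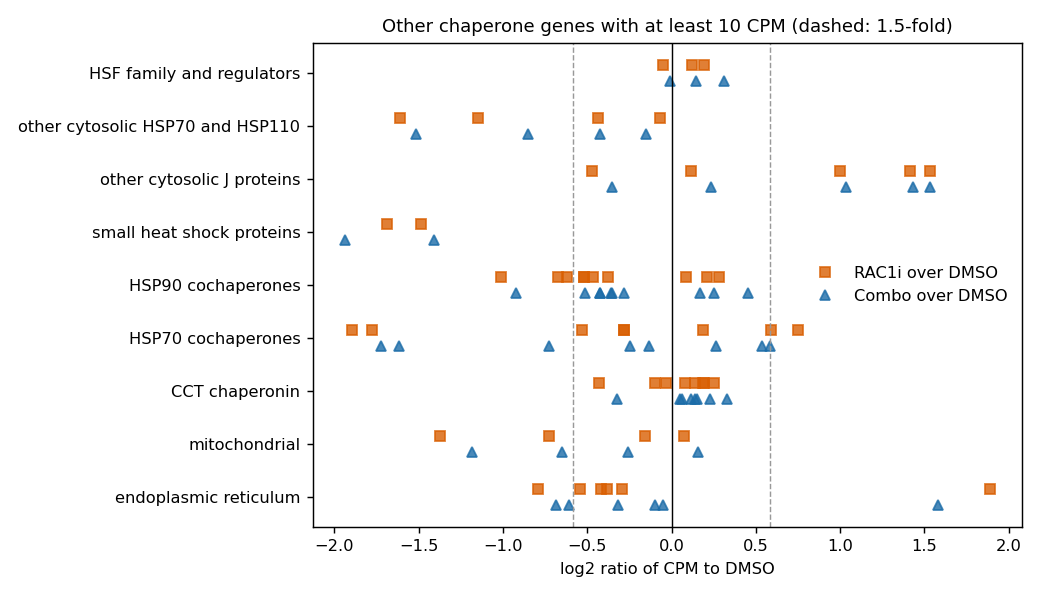
Log2 ratio of CPM to DMSO (x axis) of the other chaperone genes with at least 10 CPM, 1 point per gene, by list (y axis) for RAC1i (squares) and Combo (triangles); dashed lines mark 1.5-fold. The 3 cytosolic J proteins DNAJB2, DNAJB4 and DNAJB6 and the ER gene DNAJB9 lay to the right, and the CCT subunits stayed between the dashed lines.

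Of 6 other stress transcripts, 5 had at least 10 CPM, and in both treated libraries 2 of these were higher than in DMSO by 1.5-fold (background 22.7% in RAC1i and 21.3% in Combo) and 1 was lower (background 36.9% and 35.4%). ATF3, counted among the higher, was at 5.37 CPM in DMSO against 119.9 CPM in RAC1i and 118.9 CPM in Combo. It reached 10 CPM in the treated libraries only, so the limit on CPM helped to set this count. ATF3 and DDIT3, transcription factors of the integrated stress response, were at 22.3 and 7.46 times the DMSO level in RAC1i and at 22.2 and 7.02 times in Combo. Of the immediate early genes, EGR1 was at 0.308 times DMSO in RAC1i and 0.319 times in Combo, while FOS (0.678 and 0.745 times) and JUN (1.16 and 1.38 times) were within 1.5-fold. HMOX1, of the oxidative stress response, was below 5 CPM in every library, with 340 UMIs in DMSO against 1023 in RAC1i and 1035 in Combo. At this low level its ratios to DMSO were 2.55 (2.25 to 2.89) and 2.85 (2.52 to 3.23). Their part in the differences of the heat shock genes was not tested.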

How the data were processed

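UMIs of single cells were measured in 3 libraries of OVCAR3 cells, for DMSO, RAC1i and Combo, 1 each. The authors deposited raw UMI counts of every gene in every cell barcode, made with Cell Ranger 4.0.0 on GRCh38, with neither normalization nor a later filter on cells.

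The limits on cells stated by the study were applied, and UMIs were summed over kept cells and divided by the library's total (CPM). The CPM is not divided by transcript length, since libraries were primed at the 3′ end. Exact Poisson intervals (CPM), conditional intervals (ratios) and Clopper-Pearson intervals (shares) at 95% were computed with scipy 1.17.1, and tested on simulated data. Doublets were not called; 1 alternative left out the 8% of cells with the most UMIs. Metallothioneins were MT2A, MT1X, MT1E, MT1F, MT1G and MT1M, and the G2M list held 16 genes. Positions came from GENCODE 44.

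The 10 genes, the lists and the limits were chosen with earlier results of these data known. Named genes were the 10 members, other listed chaperone genes past 1.5-fold with at least 10 CPM, HSF1, 6 stress genes and the 5 genes most like the strictly inducible sum. HSPD1, DNAJA2, DNAJC7, ANXA2, NPM1, S100A6, TMSB10, S100A11, HSPA6, HSPB8, ACTB, GAPDH and EEF1A1 were named after their values were seen. HSPA14 was listed under 2 identifiers and was not used. Alternatives used edgeR 4.0.16 and DESeq2 1.42.0 for scaling only.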

Additional observations from a re-analysis of the deposited data

Results flagged for a closer look

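Barcodes with over 20% mitochondrial UMIs are left out of all comparisons of kept cells. There were 1592 in DMSO, 534 in RAC1i and 508 in Combo, and their levels are given per 1000000 UMIs that are not mitochondrial. They are listed because 5 heat shock genes stood above the same barcodes of DMSO in both treated libraries with an interval wholly above 1 (background 18.7%), and 3 below with an interval wholly below 1 (background 27.7%). The background genes were not matched for level, and a gene with few UMIs can rarely have such an interval. HSPH1 was at 1.17 (0.930 to 1.46) and 1.21 (0.969 to 1.497) times the DMSO level, and its intervals held 1. HSPA1A was at 149.6 CPM in DMSO against 285.8 CPM in RAC1i and 305.0 CPM in Combo, or 1.91 times (1.58 to 2.30) and 2.04 times (1.70 to 2.43) the DMSO level, whereas in the kept cells it was below DMSO (155.0, 65.1 and 67.9 CPM on this scale). For HSPA1B the ratios were 3.004 (2.26 to 3.97) and 2.03 (1.48 to 2.77), on 139, 83 and 60 UMIs. It too was below DMSO in the sum over all kept cells, but not in the shallowest quartile of them. DNAJB1 was at 3.11 and 3.25 times, BAG3 at 2.12 and 2.36 times and HSPB1 at 2.18 and 1.83 times the DMSO level in RAC1i and Combo, in the direction seen in the kept cells. HSPA8 remained below DMSO in these barcodes, at 0.349 and 0.278 times, and so did DNAJA1, at 0.638 and 0.653 times. HSP90AA1 was at 0.752 and 0.821 times. HSP90AB1 was at 1.06 (0.960 to 1.18) times in RAC1i and 0.858 (0.769 to 0.956) times in Combo, whereas in the kept cells it was above DMSO in both. These barcodes hold few UMIs, 2780672 in DMSO and 552753 and 590137 in the treated libraries, and their share of all barcodes differed between the libraries. Their UMIs per barcode differed too, so barcodes of unlike depth are compared.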

How the results depend on the processing

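No paired analysis was possible because each condition was 1 library, and for the same reason no replicate could be left out. Of the 30 ratios of single genes, 25 stayed on the same side of 1.5-fold under 8 other settings (cell limits, scalings, cell weighting and thinning). The others were HSPA1B in both treated libraries, BAG3 in Combo, HSPB1 in RAC1i and DNAJA1 in RAC1i, and 3 ratios near 1 changed sign (HSP90AA1 to DMSO in both, HSPA1B in Combo to RAC1i). With a fold of 2 in place of 1.5, 0 of the 10 genes were higher in RAC1i. By a fold of 1.5, 2 of the 10 genes were higher in Combo under TMM, DESeq2 size factors, the mean over cells and thinning, where BAG3 passed the limit. Under the same settings 2 of the 10 genes rather than 3 were lower in Combo, where HSPA1B no longer passed it. The log2 ratio of the strictly inducible sum to DMSO in RAC1i and Combo was -0.041 and -0.042 with every barcode, 0.018 and 0.029 with TMM, 0.053 and 0.056 with DESeq2 size factors, -0.13 and -0.13 without mitochondrial genes, 0.088 and 0.065 as the mean over cells, and -0.014 and -0.0090 thinned. Between Combo and RAC1i it was -0.023 as the mean over cells and -0.013 without the deepest cells. The median gene moved from -0.20 to -0.11 with TMM and -0.086 with DESeq2 size factors in RAC1i.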

Other observations

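HSPB8 and HSPA6, both below 10 CPM, were chosen after their values were seen. HSPB8, a small heat shock protein that works with BAG3, had 3 UMIs among 7531 DMSO cells, 1517 UMIs in RAC1i (6.46 CPM, 6.13 to 6.79) and 1323 UMIs in Combo (6.22 CPM, 5.89 to 6.56). It was seen in 2 DMSO cells, in 10.4% of RAC1i cells and in 10.5% of Combo cells, with at most 9 UMIs in a cell. HSPA6, an HSP70 gene known for strict induction by heat, had 5 UMIs in DMSO, 52 in RAC1i and 110 in Combo. These came from 4, 26 and 31 cells, with up to 18 UMIs in 1 RAC1i cell and 22 in 1 Combo cell.

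HSP90AB1 was the only member whose most opposed genes over thinned cells were mitochondrial transcripts. Its r to MT-CO2 was -0.32 in DMSO against -0.18 in RAC1i and -0.24 in Combo, and its nearest genes were HSP90AA1 and NPM1. Thinned to a fixed total, cells with more mitochondrial UMIs have fewer of all others, so part of such an r is set by the total. These values are across the cells of 1 library each.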
